A study of Mus musculus with 30 samples.

Results

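The oligoadenylate synthetase family is described here in mouse blood drawn 24 h after an x-ray dose of 7 Gy, or from unirradiated mice. Its members are the 6 genes Oas1a, Oas1g, Oas2, Oas3, Oasl1 and Oasl2, found as the non-control probes whose gene name on the array is a member. They had 8 of the 39429 probes, of which Oas1a and Oas1g had 2 each and the other members 1 each. After a filter on dim probes 5 of the 6 members were among the 18718 genes tested, and Oas1g was not.

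There were 30 single-colour Agilent arrays, each of total blood RNA from a male C57BL/6J mouse, in 6 groups of 5: p38DKI irradiated and unirradiated, p38DN irradiated and unirradiated, and p38WT irradiated and unirradiated. The labels give the 3 genotypes by these names alone, without the alleles, age or any driver of a transgene, and describe the 5 arrays of a group as independent experiments. No transcript was used to check the genotypes, since the labels name no altered allele. Blood came from cardiac puncture into a lysing stabiliser, so no cell type was isolated. The study's title sets the question, how the p38 MAP kinase cascade bears on the use of blood transcripts as a measure of radiation dose.

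Oligoadenylate synthetases are enzymes induced by interferon. On binding double-stranded RNA, the active ones make short chains of adenylate with 2′-5′ bonds (2-5A), a second messenger of antiviral defence. The Oasl genes carry ubiquitin-like domains as well, and mouse Oasl1 is known to lack the synthetase activity and to restrain translation of the mRNA of Irf7, a driver of interferon production. In the classical pathway interferon receptors activate a complex that includes STAT2 and IRF9 and binds the interferon-stimulated response element (ISRE) in promoters of such genes.

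The promoters are shown because interferon acts on genes of this family through promoter elements. RefSeq's promoter table (GRCm38.p6) matched 5 members, Oas1a, Oas1g, Oas3, Oasl1 and Oasl2, while Oas2 had no entry. The 100 bases before the start of 4 of them, 5′ to 3′ on the gene's strand, are at chr5:120907526-120907625 (minus strand) for Oas1a, chr5:120887614-120887713 (minus) for Oas1g, chr5:120777660-120777759 (minus) for Oas3 and chr5:114923140-114923239 (plus) for Oasl1. Capitals mark GAAA, any 2 bases and GAAA, the core of an ISRE, searched on both strands.
Oas1a: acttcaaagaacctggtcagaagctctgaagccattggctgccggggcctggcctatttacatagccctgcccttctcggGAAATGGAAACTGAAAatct
Oas1g: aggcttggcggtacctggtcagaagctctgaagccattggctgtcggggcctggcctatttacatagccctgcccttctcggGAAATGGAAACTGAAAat
Oas3: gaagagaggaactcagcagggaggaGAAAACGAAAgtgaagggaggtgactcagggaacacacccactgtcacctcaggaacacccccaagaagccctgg
Oasl1: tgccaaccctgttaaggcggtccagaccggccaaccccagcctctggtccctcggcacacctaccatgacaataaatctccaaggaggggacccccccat

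In Oas1a 2 overlapping matches of the ISRE letters lay at bases 20 to 11 and 14 to 5 before the start. Oas1g had the same pair at bases 18 to 9 and 12 to 3, and its stretch was identical to that of Oas1a at 90.2% of aligned positions. A single match stood in Oas3 at bases 75 to 66 before the start. The windows of Oasl1 and Oasl2 held none. Among 32851 RefSeq windows of 300 bases, 3.44% held this ISRE core. A second pattern, TTC, any 3 bases and GAA, of the gamma-interferon-activated kind, occurred in Oas1a alone among these 5 windows (bases 98 to 90 before the start) and in 8.3% of all windows.

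All member probes lie on chromosome 5 of mm9, the build of the array's own positions. Those of Oas1a, Oas1g, Oas2 and Oas3 are on the minus strand at 121346735 to 121346794 for the brighter Oas1a probe, 121326271 to 121326330 for the brighter Oas1g probe, 121180343 to 121180402 for Oas2 and 121203598 to 121203657 for Oas3. Those of Oasl1 (115387861 to 115387920) and Oasl2 (115362168 to 115362227) are on the plus strand. Whether each lies in a coding exon or an untranslated region was not assigned here, since no annotation of mm9 was used.

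Levels are log2 of the processed intensity relative to the 75th percentile of the same array, so a step of 1 is a doubling, and they compare arrays for 1 probe, not probes with each other. The slides shaped the design. p38WT arrays were on slides 1 to 3 and p38DKI arrays on slides 3 to 5, all of 1 scan day. Only slide 3 held both, with irradiated p38WT and unirradiated p38DKI arrays. p38DN arrays filled slides 6 to 10, scanned in another period. For p38DN against p38WT at one dose, slide batch and genotype therefore cannot be told apart, and only irradiation effects were compared. The 75th percentile was 43.3 to 230.4 intensity units, and 39.71 to 63.23% of probes were well above background. Markers of blood were present on all arrays, with mean levels from 2.65 to 7.03 for 8 erythroid genes and from 5.25 to 8.28 for 7 platelet genes. Liver transcripts were most abundant on 4 arrays, p38DKI irradiated replicate 2 and p38DN unirradiated replicates 2, 4 and 5. The mean of the 13 measured liver markers (of 14) reached 8.54 in irradiated p38DKI and 7.43 in unirradiated p38DN blood, and was -3.38 to -2.32 in unirradiated p38WT blood. Members whose call or sign changed without these arrays are given below. How far the other changes moved in size without them is not given. Unirradiated p38DN blood keeps only replicates 1 and 3 without them, and the folds below include these arrays. The mean of 6 measured heart muscle markers (of 8) was highest on p38WT irradiated replicate 2 (3.46), p38DN irradiated replicate 3 (2.68) and p38WT unirradiated replicate 1 (2.09). The part of heart RNA in the levels was not tested.

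After irradiation 4 of the 5 tested members were higher in every genotype: Oas1a, Oas2, Oasl1 and Oasl2. The shares of all genes called higher by limma (adjusted p under 0.05) were 12.1% in p38DKI, 17.6% in p38DN and 15% in p38WT, and the shares called lower were 19.3%, 10.3% and 12.1%. The irradiated arrays lay above the unirradiated arrays without overlap for these 4 members in each genotype, which held for 7.23%, 12.4% and 12.9% of all genes in p38DKI, p38DN and p38WT. The median change of the 5 members was 2.75, 3.22 and 2.75 on the log2 scale, against -0.25, 0.01 and -0.03 for all genes, in the same order of genotypes. Oas3 did not pass the test in any of the 3.

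**Figure D1:**
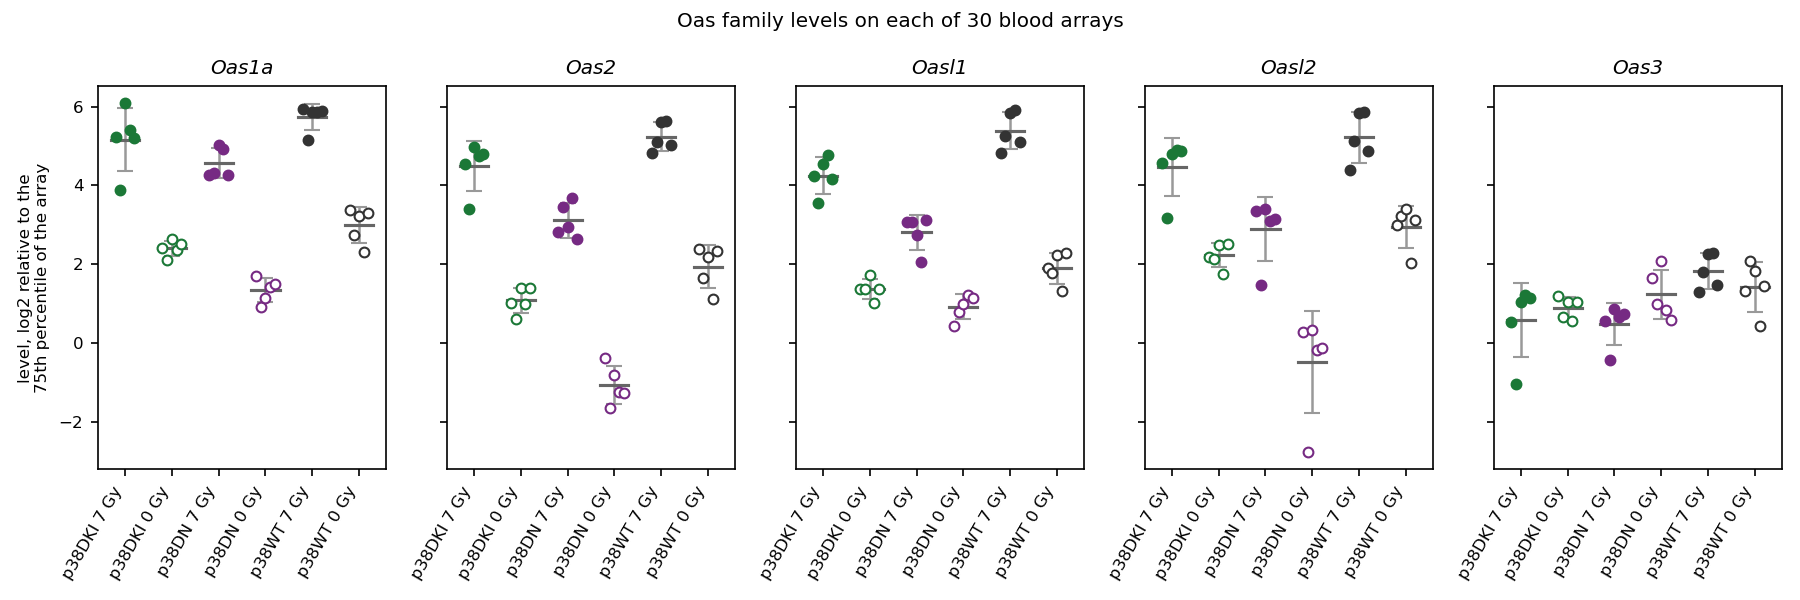
Levels of the 5 tested members on the 30 arrays, in log2 relative to each array's 75th percentile (y axis), by genotype and dose (x axis). Filled points are irradiated arrays and open points unirradiated arrays, with the group mean as a bar and whiskers of 1 SD (n = 5). Filled points lie above the open points of the same genotype in Oas1a, Oas2, Oasl1 and Oasl2, and overlap them in Oas3.

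Oas1a encodes an enzymatically active synthetase that makes 2-5A. In p38DKI blood its levels were 5.23, 3.87, 6.08, 5.4 and 5.19 on irradiated arrays, against 2.41, 2.11, 2.64, 2.37 and 2.5 on unirradiated arrays. In p38DN blood they were 4.26, 4.32, 5.02, 4.93 and 4.27 irradiated, against 1.7, 0.92, 1.14, 1.43 and 1.5 unirradiated. In p38WT blood they were 5.95, 5.15, 5.85, 5.86 and 5.89 irradiated, against 3.37, 2.73, 3.21, 2.31 and 3.31 unirradiated. The lowest irradiated array of each genotype was above its highest unirradiated one. Oas1a rose 6.74-fold in p38DKI (log2 2.75 ± 0.29 SE, limma adjusted p = 1.01e-07), 9.32-fold in p38DN (3.22 ± 0.29, adjusted p = 7.84e-09) and 6.73-fold in p38WT (2.75 ± 0.29, adjusted p = 9.24e-08). The dimmer Oas1a probe gave log2 changes of 2.59, 2.86 and 2.59 in the same order. The brighter probe is annotated to Oas1g also, and the dimmer one to Oas1a only.

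Oas1g, the near neighbour of Oas1a with an active enzyme, could not be measured apart from Oas1a. Both probes that carry its name failed the filter, while the brighter Oas1a probe, which is annotated to both genes, was well above background on 30 of 30 arrays. The brighter probe named Oas1g, annotated to Oas1a also, passed that mark on 2 of 5 p38DKI irradiated arrays and 1 of 5 p38DKI unirradiated arrays. The same probe passed on 1 of 5 arrays at each dose of p38DN, and on 0 of 5 at each dose of p38WT. The probe annotated to Oas1g alone passed on 0 of 30. No fold is given for Oas1g.

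Oas2 encodes another active synthetase and had the highest irradiation fold of the 5 members in p38DKI and p38DN. In p38DKI blood Oas2 stood at 4.54, 3.39, 4.98, 4.75 and 4.8 irradiated, against 1.02, 0.62, 1.4, 0.98 and 1.39 unirradiated. The p38DN arrays had 2.82, 3.44, 2.94, 3.69 and 2.65 irradiated, against -0.39, -1.65, -0.82, -1.24 and -1.28 unirradiated. The p38WT arrays had 4.82, 5.1, 5.61, 5.63 and 5.03 irradiated, against 2.38, 1.64, 2.18, 1.11 and 2.33 unirradiated. Doses were apart by more than 1 log2 unit between the nearest arrays of each genotype. The fold was 10.6 in p38DKI (log2 3.41 ± 0.30, limma adjusted p = 5.21e-09), 18.2 in p38DN (4.18 ± 0.30, adjusted p = 2.21e-10) and 9.92 in p38WT (3.31 ± 0.30, adjusted p = 8.48e-09). In p38DN only 7 of 18718 genes had a higher log2 change. Over the 16 processing alternatives the p38DN log2 change of Oas2 ran from 1.98 to 4.36, and that of Oas1a from 2.49 to 3.33. Oas2 was therefore not the highest in p38DN under every alternative.

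Oasl1, the member without synthetase activity, had the steepest rise of the family in p38WT and the smallest rise among the 4 in p38DN. Its levels in p38DKI were 4.23, 3.54, 4.55, 4.76 and 4.17 irradiated, against 1.37, 1.38, 1.72, 1.02 and 1.38 unirradiated. In p38DN they were 3.06, 3.06, 2.75, 2.05 and 3.12 irradiated, against 0.44, 0.78, 1, 1.22 and 1.15 unirradiated. In p38WT they were 4.82, 5.26, 5.84, 5.91 and 5.1 irradiated, against 1.89, 1.78, 2.22, 1.31 and 2.29 unirradiated. The gap between doses was widest in p38WT and narrowest in p38DN. Oasl1 rose 7.36-fold in p38DKI (log2 2.88 ± 0.26, limma adjusted p = 6.17e-09), 3.71-fold in p38DN (1.89 ± 0.26, adjusted p = 5.38e-06) and 11.2-fold in p38WT (3.49 ± 0.26, adjusted p = 3.34e-10). In p38WT it ranked 15 among 18718 log2 changes. With normexp background correction the p38DN rise was 1.4 on the log2 scale with an adjusted p of 0.054.

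Oasl2, a ubiquitin-like member, rose with the largest pooled SE of the 4 that rose. Its p38DKI levels were 4.57, 3.17, 4.8, 4.91 and 4.87 irradiated, against 2.19, 2.14, 2.49, 1.76 and 2.51 unirradiated. The p38DN levels were 3.36, 1.48, 3.4, 3.09 and 3.14 irradiated, against 0.27, -2.77, 0.33, -0.17 and -0.13 unirradiated. The p38WT levels were 4.38, 5.12, 5.84, 5.87 and 4.88 irradiated, against 3, 3.21, 3.4, 2.02 and 3.11 unirradiated. Replicate 2 was the lowest p38DN array at both doses, and the doses still did not overlap. The fold was 4.76 in p38DKI (log2 2.25 ± 0.47, limma adjusted p = 0.000811), 10.5 in p38DN (3.39 ± 0.47, adjusted p = 8.61e-06) and 4.83 in p38WT (2.27 ± 0.47, adjusted p = 0.000748).

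Oas3 encodes the largest synthetase of the family, built of repeated synthetase domains. Its p38DKI levels were 0.53, -1.05, 1.05, 1.22 and 1.13 irradiated, against 1.19, 0.65, 1.03, 0.55 and 1.03 unirradiated. The p38DN levels were 0.56, -0.43, 0.86, 0.67 and 0.74 irradiated, against 1.66, 0.99, 2.07, 0.83 and 0.59 unirradiated. The p38WT levels were 1.29, 1.81, 2.26, 2.28 and 1.46 irradiated, against 1.32, 2.07, 1.82, 0.43 and 1.45 unirradiated. The doses overlapped in every genotype. The log2 change was -0.31 in p38DKI (95% interval -1.08 to 0.45, limma adjusted p = 0.524), -0.75 in p38DN (-1.52 to 0.02, adjusted p = 0.137) and 0.40 in p38WT (-0.36 to 1.17, adjusted p = 0.467). Without the 4 arrays rich in liver transcripts the p38DN change was -1.39 with an adjusted p of 0.00784, and the p38DKI change was 0.09. Unirradiated p38DN blood then had only replicates 1 and 3, whose Oas3 levels (1.66 and 2.07) were the highest of that group.

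**Figure D2:**
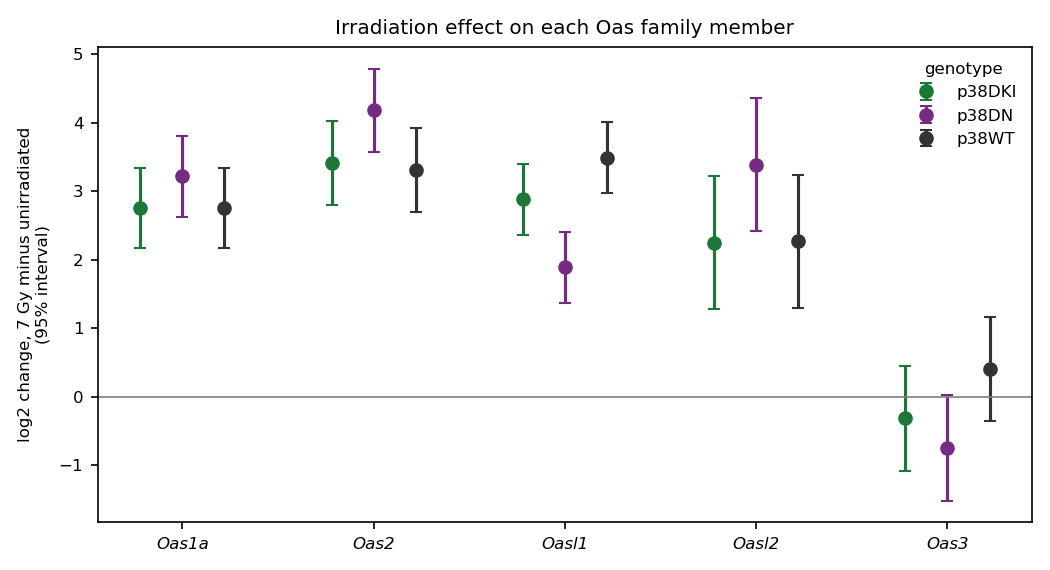
Irradiated minus unirradiated log2 change (y axis) of each tested member (x axis) in p38DKI, p38DN and p38WT blood, with 95% intervals from the limma fit of all 30 arrays. Only the intervals of Oas3 include 0, and Oasl1 runs in the order p38WT, p38DKI, p38DN from the largest change down.

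The rises were set against slides, because dose and slide were partly tied in p38DKI and p38WT. On slide 4, which held 1 irradiated and 3 unirradiated p38DKI arrays, the log2 differences of Oas1a, Oas2, Oasl1 and Oasl2 were 2.73, 3.28, 2.86 and 2.32. On slide 2, with 3 irradiated arrays and 1 unirradiated p38WT array, they were 2.33, 2.85, 3.02 and 2.01. With slide as a fixed block Oas1a and Oasl2 missed the threshold in p38WT (log2 2.33 and 2.01, adjusted p = 0.0678 and 0.194), as did Oasl2 in p38DKI (2.32, adjusted p = 0.0545). In p38DN each of 5 slides held 1 array of each dose. There Oas1a differed by 2.56 to 3.88, Oas2 by 3.21 to 5.09, Oasl1 by 0.83 to 2.62 and Oasl2 by 3.07 to 4.24, and all were positive. Oas3 was negative on 4 of these 5 slides, from -1.43 to -0.16, and 0.15 on slide 9.

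**Figure D3:**
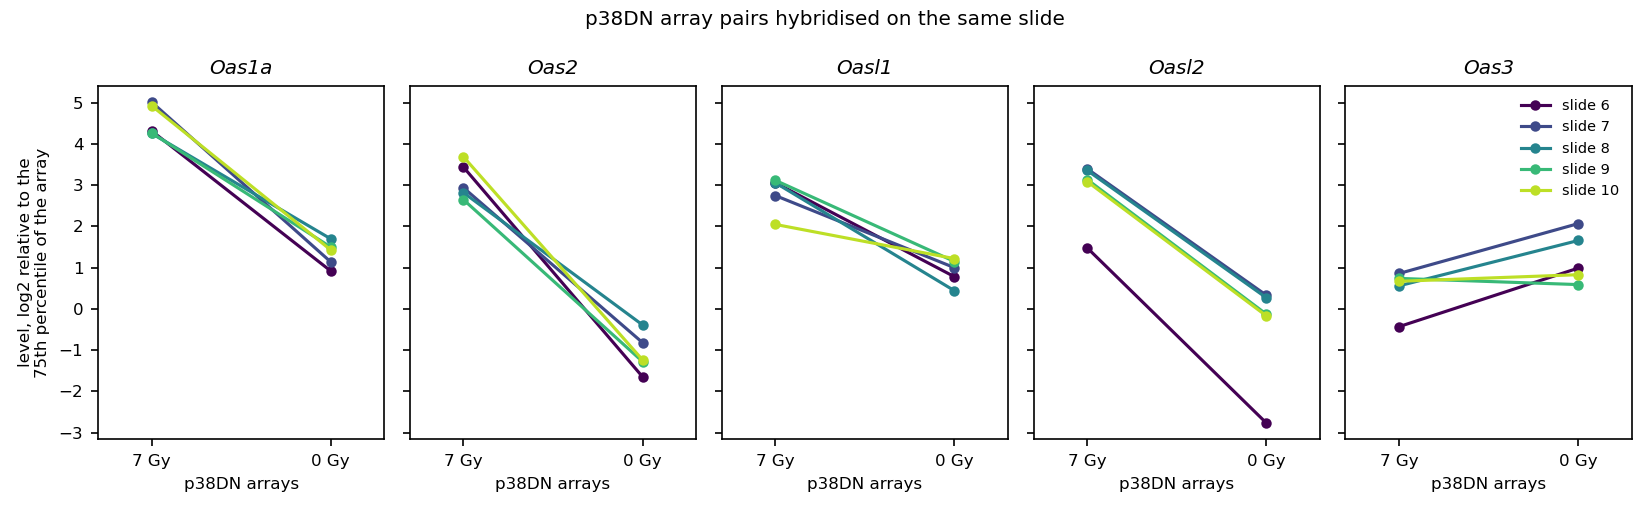
Levels of each tested member on p38DN arrays that shared a slide (y axis, log2 relative to each array's 75th percentile), irradiated at the left and unirradiated at the right. Each line is 1 of slides 6 to 10. Lines fall to the right for Oas1a, Oas2, Oasl1 and Oasl2 on all 5 slides, and rise for Oas3 on 4.

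Whether genotype altered the response was tested as the difference of the irradiation effects. For p38DKI minus p38WT no member passed (0 of 5, and 0 with an unadjusted p under 0.05), where 0.00534% of all genes were called by limma. The differences were 0 for Oas1a (95% interval -0.83 to 0.83), 0.10 for Oas2 (-0.76 to 0.96), -0.72 for Oas3 (-1.80 to 0.37), -0.61 for Oasl1 (-1.35 to 0.13) and -0.02 for Oasl2 (-1.39 to 1.35). The interval of Oasl2 was the widest of the 5.

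For p38DN minus p38WT, 1 of 5 members was called, where 1.64% of all genes were. Oasl1 rose less in p38DN than in p38WT, by -1.60 on the log2 scale (SE 0.36, limma adjusted p = 0.0267), so its fold was 3.71 in p38DN and 11.2 in p38WT. The other 4 differences did not pass. They were 0.47 for Oas1a (adjusted p = 0.556), 0.87 for Oas2 (0.257), 1.11 for Oasl2 (0.37) and -1.16 for Oas3 (0.232). Oas1a, Oas2 and Oasl2 thus had positive estimates and Oasl1 a negative one. The Oasl1 call was lost under 6 of 16 processing alternatives, among them no scaling (log2 -1.08, adjusted p = 0.188), normexp (-1.09, adjusted p = 0.387) and slide as a fixed block (-1.12, adjusted p = 0.695). It was also lost when any 1 of 4 arrays was left out (p38DN irradiated replicate 4, p38WT irradiated replicate 4, or p38WT unirradiated replicate 1 or 4), with adjusted p from 0.0514 to 0.0576 and log2 differences from -1.59 to -1.41. Without the arrays rich in liver transcripts it was -1.40 with an adjusted p of 0.0516, and Oas3 reached -1.79 with an adjusted p of 0.0362. Both then rest on replicates 1 and 3 alone for unirradiated p38DN blood.

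p38DKI blood was also set against p38WT blood at each dose. In unirradiated blood no member passed (0 of 5, with 2 at an unadjusted p under 0.05), where 0.102% of all genes did. All 5 estimates were negative, from -0.84 for Oas2 to -0.52 for Oasl1, with limma adjusted p from 0.421 to 0.837. In irradiated blood 1 of 5 members was called, where 4.51% of all genes were. Oasl1 was lower in p38DKI, at 4.25 ± 0.46, against 5.39 ± 0.48 in p38WT (SD, n = 5 each), a log2 difference of -1.13 ± 0.26 SE (limma adjusted p = 0.0143) with no overlap of arrays. Oas3 did not overlap either, at 0.58 ± 0.95 in p38DKI and 1.82 ± 0.45 in p38WT (log2 -1.24, adjusted p = 0.0527). Arrays lower without overlap were found for 4.51% of all genes. No slide held arrays of both genotypes at the same dose, so at either dose slide was not separated from genotype within a slide. The Oasl1 call was lost without p38DKI irradiated replicate 2 (log2 -0.96, adjusted p = 0.0552), the p38DKI array richest in liver transcripts. It was also lost under 7 of 16 processing alternatives, among them no scaling (log2 -0.54, adjusted p = 0.296), normexp (-0.44, adjusted p = 0.444), array median scaling (-1.06, adjusted p = 0.066) and a fit of only the groups compared (adjusted p = 0.218).

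By mean level, the groups kept one order in the 3 members Oas1a, Oas2 and Oasl1. It ran p38WT irradiated, p38DKI irradiated, p38DN irradiated, p38WT unirradiated, p38DKI unirradiated and p38DN unirradiated from high to low. For Oasl2 the order differed only in the middle, where p38WT unirradiated blood (2.95 ± 0.54) and p38DN irradiated blood (2.89 ± 0.80) lay within their spread (SD, n = 5). The lowest means were those of p38DN unirradiated blood, at -1.08 ± 0.48 for Oas2 and -0.49 ± 1.29 for Oasl2. In that group replicates 2, 4 and 5, which were rich in liver transcripts, were the lowest for both. They had -1.65, -1.24 and -1.28 for Oas2, against -0.39 and -0.82 on the others. For Oasl2 they had -2.77, -0.17 and -0.13, against 0.27 and 0.33. The part of liver RNA in these low levels was not tested. Oas3 had no such order, and its neighbouring means lay 0.10 to 0.40 apart, less than the larger SD of each pair. The p38DN places in these orders are the levels for which slide batch cannot be told apart from genotype.

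Across all arrays, which differ in dose, Oas3 had the lowest correlations with the other members. Over the 30 arrays, the r of Oas1a with Oas2 was 0.974 and of Oas2 with Oasl2 0.933, while Oas3 had r from 0.092 to 0.264 with the others. After group means were subtracted, Oas3 had r from 0.443 to 0.724 with them, while Oasl1 had r from 0.334 to 0.443 with the other 4. These arrays share dose groups and scaling, so the values are descriptions. On the family mean, p38DKI irradiated replicate 2 deviated from its group mean by -1.20 and p38WT unirradiated replicate 4 by -0.80, the largest deviations among the 30 arrays. Outside the family, the 5 genes of 18446 most like the family mean over 30 arrays were Rtp4 (r = 0.986), a receptor-transporting protein induced by interferon, Usp18 (0.967), a brake on interferon signalling, Hdc (0.967), histidine decarboxylase, Fcgr4 (0.966), an IgG receptor, and Trim30a (0.963). With group means subtracted Rtp4 stayed first (0.915), followed by 2 transcripts that the array names by identifier alone (0.873 and 0.870), G6pdx (0.860), which encodes glucose-6-phosphate dehydrogenase, and the kinase gene Prkcd (0.846).

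Other Oas paralogs lie beside Oas1a in the RefSeq gene order. Of 6 listed, 5 were measured. Oas1f rose in all 3 genotypes, by 5.83-fold in p38DKI (log2 2.54, limma adjusted p = 1.44e-06), 7.23-fold in p38DN (2.85, adjusted p = 3.61e-07) and 5.19-fold in p38WT (2.37, adjusted p = 4.04e-06). Its probe of 60 bases matches the brighter Oas1a probe at 50 of 65 aligned positions. The whole probes span mm9 positions 121346735 to 121346794 for Oas1a and 121307929 to 121307988 for Oas1f. Only the first 30 of the 60 bases of each are printed below, with capitals for the longest run of 14 bases they share.
Oas1a probe: TGTCCACCTGTTGGaaggttctgtctgaca
Oas1f probe: ccTGTCCACCTGTTGGgaggttctgtccaa

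Whether either transcript binds the other probe was not tested. Oas1b, a flavivirus resistance gene of some mouse strains, rose 1.31-fold in p38DKI and 1.54-fold in p38WT, with 0.21 on the log2 scale in p38DN (adjusted p = 0.253). Its 2 dimmer probes gave log2 changes of 0.86 and 0.69 in p38DKI, 0.45 and 0.71 in p38DN, and 0.72 and 1.36 in p38WT. Only the dimmest Oas1b probe, given second in each pair, is annotated to Oas1b. The brightest and the other are annotated to no gene. Oas1e fell in p38DKI (log2 -1.09, adjusted p = 0.00551) and p38DN (-0.84, adjusted p = 0.0307). Oas1c and Oas1d did not pass the test in any genotype, and Oas1h was too dim to be tested.

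Downstream of the synthetases, none of the 5 listed genes of the 2-5A pathway was called in p38DKI or p38DN. In p38WT Akap7 rose (log2 1.14), while Enpp1 (-2.44) and Abce1 (-0.67) fell. Enpp1 fell to a mean level of -5.19 in irradiated p38WT blood. The probe annotated to Oas1g alone, above background on 0 of 5 of these arrays, had -5.3. The size of the Enpp1 fall is therefore uncertain. Among all genes 15% were called higher and 12.1% lower in p38WT, 12.1% and 19.3% in p38DKI, and 17.6% and 10.3% in p38DN. Enpp1 had log2 changes of -0.92 in p38DKI and -1.33 in p38DN, which did not pass, and 0 of the 5 genes were called for a difference of the irradiation effect from p38WT in either genotype.

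Upstream, 5 of 10 listed interferon genes were measured. Ifng rose in p38DN (log2 1.23) and p38WT (1.28), and Ifnl3 fell in p38DN (-1.14). Of all genes, 12.1% were called higher and 19.3% lower in p38DKI, 17.6% and 10.3% in p38DN, and 15% and 12.1% in p38WT. Of 20 receptor and signalling genes 4 rose and 1 fell in p38DKI, 7 rose and 1 fell in p38DN, and 7 rose and 2 fell in p38WT. Their median log2 changes were 0.15, 0.56 and 0.34, against -0.25, 0.01 and -0.03 for all genes. Usp18 rose (log2 2.02 in p38DKI, 1.83 in p38DN and 2.56 in p38WT), as did Stat2 (1.12, 0.96 and 1.19) and Irf9 (0.94, 1.14 and 0.84), both parts of the complex that binds the ISRE. Irf8, a factor of myeloid and B cells, fell (-1.89, -2.34 and -1.61). Irf7 and the type I receptor genes Ifnar1 and Ifnar2 were called in none of the 3, and are named for their roles after their values were seen. Of 12 measured sensors of RNA and DNA, 6 rose and 1 fell in p38DKI, 7 rose and 0 fell in p38DN, and 7 rose and 1 fell in p38WT. Ifih1, which encodes a sensor of long double-stranded RNA, rose by 2.32, 1.90 and 1.87, and Eif2ak2, the double-stranded RNA kinase PKR, by 2.16, 3.08 and 1.97. Ifi204, a DNA sensor of the same interferon-induced kind, rose by 2.24, 2.14 and 2.09.

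**Figure D4:**
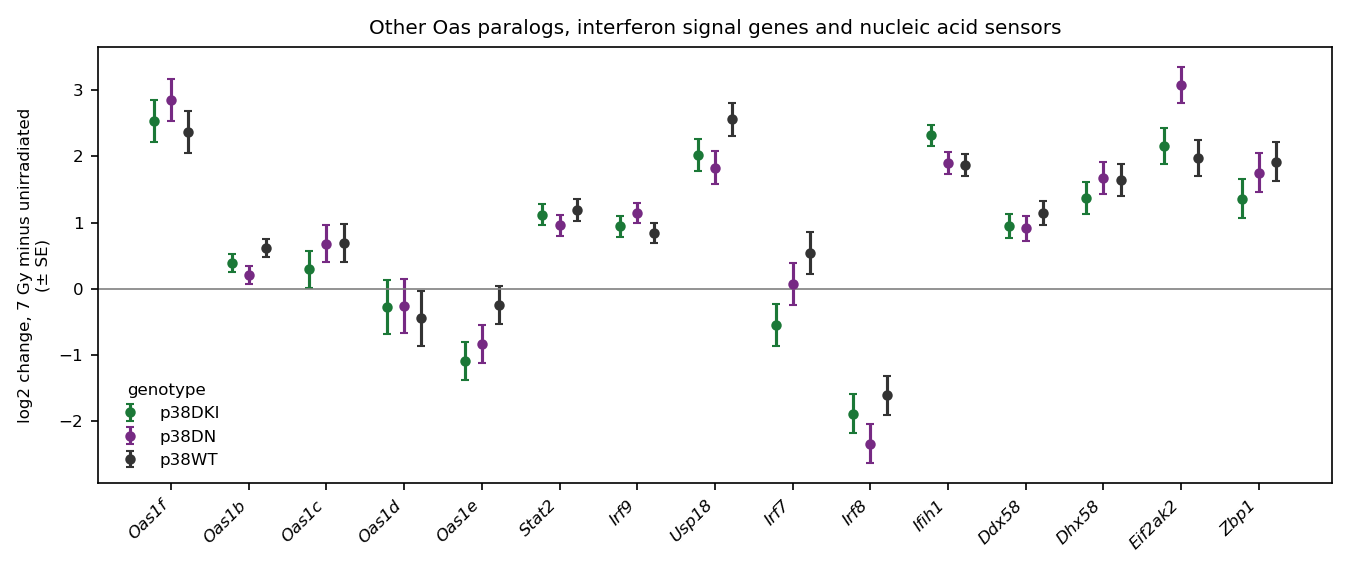
Irradiated minus unirradiated log2 change with its SE (y axis) for the measured other Oas paralogs and for chosen interferon signalling genes and sensors (x axis), in p38DKI, p38DN and p38WT blood. The sensors drawn all rose in all 3 genotypes, and the sensor that fell in p38DKI and p38WT is not drawn. Oas1f, Usp18, Ifih1 and Eif2ak2 lie well above 0 in all 3 genotypes, Irf8 well below, and Irf7 nearer to 0.

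In whole blood a fall or rise of a gene's RNA per cell and a change in the cells present cannot be told apart. The marker counts stand beside shares of all genes called higher of 12.1%, 17.6% and 15% in p38DKI, p38DN and p38WT. The shares called lower were 19.3%, 10.3% and 12.1%. B cell markers fell at 8 of 8 genes in all 3 genotypes. Neutrophil markers rose at 6 of 8 genes in p38DKI, 1 of 8 in p38DN and 8 of 8 in p38WT, and the mean level of the 8 was 3.39 to 5.02 in irradiated against 2.69 to 3.49 in unirradiated p38DKI arrays. In p38DN it was 2.75 to 4.18 irradiated against 2.61 to 3.33 unirradiated, and in p38WT 5.38 to 5.93 against 2.89 to 4.58. Platelet markers rose at 2, 7 and 6 of 7 genes and NK cell markers at 2, 0 and 4 of 6 in p38DKI, p38DN and p38WT. T cell markers fell at 6, 3 and 4 of 8 genes and erythroid markers at 6, 4 and 4 of 8, in the same order. Monocyte markers rose at 2, 3 and 2 of 7 genes and fell at 1, 2 and 1. Plasmacytoid dendritic cell markers rose at 1, 1 and 0 of 5 genes and fell at 3, 1 and 2. The part of these shifts in the Oas rises was not tested.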

How the data were processed

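Blood RNA of 30 mice was hybridised to single-colour Cy3 arrays. The deposited scanner files hold intensities made with Agilent Feature Extraction 12.0.2, per the submitters' processing notes, and processed signals that are background-subtracted, per the file headers. The authors' deposited value table holds log2 values of 18417 probes. It equals log2 of the processed signal minus a constant per array (-1.161 to 0.642) within 0.01 for 100% of 18140 probes spotted once. How that constant was chosen is not given in the sources used here.

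Control spots and those marked as outliers were dropped, and spots of the same probe were averaged. Log2 of the processed signal minus the 75th percentile of each array was analysed. Probes had to be well above background on at least 4 of 5 arrays of a group, with values on at least 20 arrays. Each gene was represented by its brightest kept probe. Of 39429 probes, 29056 were named by accession, 3150 by symbol and 116 by synonym through RefSeq, and 7107 kept the name in the files. limma 3.58.1 in R 4.3.3 (lmFit and eBayes) fitted the 6 group means with 24 residual degrees of freedom, and p-values were adjusted by Benjamini-Hochberg over 18718 genes. The fit was tested on simulated data. Precision is limited by the number of arrays, since intensities carry no counting depth.

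The members and lists were chosen with earlier results of these data known. Besides the members and the other Oas paralogs, the text names up to 4 called genes of each pathway list, and the 5 genes most like the family mean over arrays and within groups. Results of 1 gene of the lists are not reported here. Alternatives covered scaling, background correction, the deposited values, dim probes, probe choice, outlier spots, samples fitted, slide, replicate number, liver transcripts and each array left out. Replicate numbers are shared by both doses, and deviations of same-numbered arrays had correlations from -0.214 to 0.411, so they were not taken as pairs, although same-numbered p38DN arrays share a slide. The 2 promoter patterns were searched with Python 3.11.15, and sequences were aligned with Biopython 1.88. All columns of samples were used.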

Additional observations from a re-analysis of the deposited data

Results flagged for a closer look

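Among 30 sets of 5 arrays (5 members in 6 groups), 6 held a value that stood apart from the other 4 by Dixon's criterion, which chance alone meets in about 1 of 20 sets. These 6 values fall on 4 distinct arrays, and the sets share arrays. In irradiated p38DKI blood, replicate 2 was low for Oas2 (3.39, next 4.54) and Oasl2 (3.17, next 4.57). That array is also the one with the most liver transcripts. In p38DN blood, replicate 2 was low for Oasl2 at both doses, at 1.48 irradiated (next 3.09) and -2.77 unirradiated (next -0.17), and for Oas3 irradiated (-0.43, next 0.56). Both p38DN arrays came from slide 6. In irradiated p38WT blood, replicate 2 was low for Oas1a (5.15, next 5.85). That p38WT array had the highest mean of the heart muscle markers (3.46).

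The irradiation effect on Oasl1 passed the test of a difference between genotypes, a call that was lost under 6 of 16 alternatives (down to -1.08 on the log2 scale without scaling) and without any 1 of 4 of the 30 arrays. The effect in p38DN minus that in p38WT was -1.60 on the log2 scale (SE 0.36, limma adjusted p = 0.0267), with a fold of 3.71 in p38DN and 11.2 in p38WT.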

How the results depend on the processing

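The rises of Oas1a, Oas2, Oasl1 and Oasl2 kept their direction under all 16 alternatives and each left-out array. Their sizes moved: over the alternatives the p38DN log2 change ran from 1.98 to 4.36 for Oas2 and from 1.68 to 3.49 for Oasl2. With slide as a fixed block 2 members were called in p38WT, where few arrays share a slide across doses. The lowest and highest counts with an array left out were 4 and 4 for each irradiation effect, 0 and 1 for p38DN minus p38WT and 0 and 2 for p38DKI minus p38WT irradiated. For p38DN minus p38WT the count was 0 with array median scaling, no scaling, normexp, no filter and slide fixed, and 2 with the liver covariate. For p38DKI minus p38WT irradiated it was 0 with array median scaling, no scaling, normexp, only the groups compared, slide fixed, without liver-rich arrays and with the liver covariate, and 2 with the stricter filter, slide as a random block (correlation -0.051) and the replicate block. Under the replicate block Oas3 was called at -1.24 (adjusted p = 0.0444), and no other member call changed.

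Only values that had missed the threshold changed sign. Oas3 in p38DKI was 0.11 with median scaling, 0.31 unscaled, 0.09 without liver-rich arrays and 0.05 with the liver covariate, and -0.47 to 0.09 with an array left out. Oas3 in p38WT was -0.02 unscaled and with normexp. For p38DKI minus p38WT effects, Oasl2 was 0.41 with median scaling, 1.03 unscaled, 0.06 with the percentile over probes detected everywhere, 0.92 with normexp, 0.29 with deposited values, 0.32 with slide fixed, 0.30 without liver-rich arrays, 0.18 with the covariate, and -0.23 to 0.30 with an array left out. Oas2 ran from -0.02 to 0.38 with an array left out, Oas3 was 0.33 unscaled, and Oasl1 was 0.44 unscaled and 0.22 with normexp. Oas2 in p38DN minus p38WT was -0.35 with normexp. Oas1a in p38DKI minus p38WT irradiated was 0.02 unscaled and 0.16 with normexp. The causes were not tested.

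The Oas3 fall in p38DN was called with deposited values (-0.90), the liver covariate (-1.26) and without liver-rich arrays (-1.39). The last left only replicates 1 and 3 of unirradiated p38DN blood. Scaling moved whole-genome splits. In p38DKI 2261 genes were higher and 3604 lower, against 3791 and 1279 with median scaling and 3819 and 759 unscaled, as the median change moved to 0.17 and 0.37. In p38WT, 2814 and 2261 became 840 and 3376 unscaled. Normexp called 1379, 436 and 1335 genes in p38DKI, p38DN and p38WT, against 5865, 5228 and 5075, and slide fixed called 680 in p38DKI and 163 in p38WT. Called genes ran from 1 to 1019 for p38DN minus p38WT (307 in the analysis as reported) and from 1 to 1922 for p38DKI minus p38WT irradiated (844).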
